A study of Mus musculus with 4 samples.

Results

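Map3k7 encodes TAK1, a kinase of the MAP3K tier and the gene that was made conditional in the mice of this study. It was 1 of 21302 named genes on the array and was represented by 2 probes, found by gene name, of 54669 probes that were measured on all 4 arrays. Genomic DNA of 4 liver cell samples was compared with DNA pooled from 4 normal livers by array comparative genomic hybridisation, in which both DNAs carry different dyes and compete for each probe. All 4 samples carried the genotype TAK1LPC-KO_RIP3-_-, which the series title describes as TAK1 deficiency of liver parenchymal cells together with loss of Rip3, so there was 1 group and the pool was the only control. The labels give no age, sex, strain or treatment, and neither the Cre driver nor the excised segment of Map3k7 is given in the sources used here. Per the labels the DNA came from formalin-fixed, paraffin-embedded sections. Liver sections as a rule hold cells other than parenchymal cells, and their share was not analysed here. DNA ratios do not show which genes a cell expresses, so the labelled tissue could not be checked against markers. The labels do not tell whether the samples are from different animals. The p-values below thus come only from these 4 samples, and part of the spread among them may be technical.

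TAK1 is held in a complex with the adaptor proteins TAB1, TAB2 and TAB3. After TNF, interleukin-1 or Toll-like receptor signals it is recruited to ubiquitin chains and phosphorylates the IKK complex, which frees NF-kB, and MAP2K kinases, which switch on JNK and p38. In hepatocytes this restrains cell death, and RIP3, encoded by Ripk3, carries out a form of that death known as necroptosis. A conditional allele is built by placing loxP sites around part of a gene, and Cre recombinase removes only the part between them. A probe inside that part loses signal in recombined cells, whereas a probe elsewhere in the gene keeps it and says nothing about recombination.

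The probes of Map3k7 are 60 bases long and lie 23.3 kb apart on chromosome 4 of mouse build mm9. The RefSeq promoter table, which uses another build, places the gene on the plus strand, so the probe of lower coordinate, chr4:32081627-32081686, is called the upstream probe and chr4:32104945-32105004 the downstream probe. Exon, intron and UTR positions on mm9 were not used here, and whether either probe lies in the excised part is not known from these data. The array left a stretch of 123.8 kb without a probe before the upstream probe and of 75.9 kb after the downstream probe, against a median spacing of 18.2 kb over the autosomes. Any change confined to those stretches would not be seen. The probe sequences are shown together with those of the nearest probes on either side, because the 4 differ in ratio while being alike in base composition. They are written 5′ to 3′ as the files give them, with G and C in capitals.
Nearest probe before Map3k7, chr4:31957802-31957861: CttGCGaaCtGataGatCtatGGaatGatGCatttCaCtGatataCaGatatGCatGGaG
Map3k7 upstream probe: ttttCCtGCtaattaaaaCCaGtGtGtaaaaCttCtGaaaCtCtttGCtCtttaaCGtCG
Map3k7 downstream probe: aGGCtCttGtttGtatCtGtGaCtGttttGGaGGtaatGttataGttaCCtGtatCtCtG
Nearest probe after Map3k7, chr4:32180840-32180899: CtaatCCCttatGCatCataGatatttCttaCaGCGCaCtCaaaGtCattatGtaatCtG
G and C made up 21 of 60 bases in the upstream Map3k7 probe and in the nearest probe after the gene, and 23 of 60 in the downstream Map3k7 probe and in the nearest probe before it.

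Values are log2 ratios of sample (Cy5) over pool (Cy3) processed intensity, centred on the median of the autosomal probes of each array, so 0 is the level of the typical autosomal probe. The ratio of a gene is the mean of its probes. A gene or probe was called at a limma adjusted p under 0.05 together with an absolute mean of at least 0.25. The sample channel had 84.3% to 89.9% of its spots well above background, and the pool channel 94.4% to 97.7%. Replicates 1 and 2 shared slide 1 and replicates 3 and 4 slide 2, and it is this number of arrays that sets the precision. With limma 7236 of 20445 autosomal genes were called, which is 35.4% of them, with 16.1% higher and 19.3% lower than the pool. At that share a call by itself sets a gene little apart. No dyes were swapped, so each ratio also holds any dye bias of its probe, whose part was not tested.

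On the arrays labelled as knockout neither Map3k7 probe had a centred ratio below 0, and the gene ratio lay above 0 on all 4. Whether either probe lies in the excised part is not known, and no sample with an intact gene was set against the pool. These ratios therefore do not tell whether the excised part was lost or kept. The gene ratio was 0.47 on replicate 1, 0.68 on replicate 2, 0.77 on replicate 3 and 0.68 on replicate 4. Replicate 1 was lowest, and the values did not overlap 0. Their mean was 0.65 ± 0.13 (SD, n = 4), a 1.57-fold higher ratio than the typical autosomal probe, with a 95% interval of 0.48 to 0.82 (limma, adjusted p = 0.00192). Of the 20445 autosomal genes 401 had a mean at least as high. The replicates of slide 1 averaged 0.57 and those of slide 2 averaged 0.72. That difference of 0.15 had an interval of -0.18 to 0.48 (limma with slide as the term, adjusted p = 0.694), and with 2 arrays on each slide, slide and sample cannot be told apart.

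**Figure D1:**
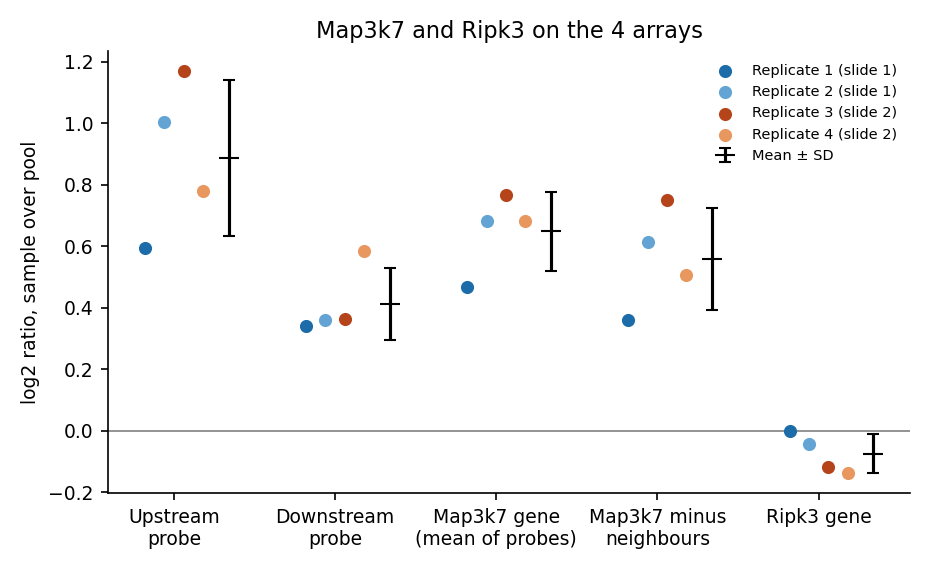
Log2 ratio of sample over pool (vertical axis) of the Map3k7 probes, the Map3k7 gene, the gene after subtraction of the median of its neighbours, and Ripk3, with a point for each array and the mean with its SD beside the points. Every Map3k7 point lies above 0, whereas the 4 Ripk3 points lie between -0.14 and -0.0019.

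The upstream probe carried the larger ratio. It gave 0.59, 1.01, 1.17 and 0.78 on replicates 1 to 4, with a mean of 0.89 ± 0.25 (SD, n = 4) and a 95% interval of 0.62 to 1.15 (limma over 52385 autosomal probes, adjusted p = 0.00264). The downstream probe gave 0.34, 0.36, 0.36 and 0.59, with a mean of 0.41 ± 0.12 and an interval of 0.21 to 0.61 (adjusted p = 0.0111). Replicates 1, 2 and 3 were nearly equal there, and replicate 4 stood above them. Among all autosomal probes 36.9% were called and 18.2% were called higher, so the direction of either probe is shared by many. The upstream probe lay at percentile 98.9 of these probes and the downstream probe at percentile 87.8. With normexp background correction of the raw signals the downstream probe stood at 0.24, below the size limit, and its call was lost (limma, adjusted p = 0.0129). That correction added an offset of 50 to both channels. The upstream probe also stood lower there, at 0.61, and the gene at 0.43. The part of the offset in these lower values was not tested.

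The upstream probe exceeded the downstream probe on all 4 arrays, by 0.25, 0.65, 0.81 and 0.19. The mean difference of 0.47 ± 0.30 gave an exact two-sided sign-flip permutation p of 0.125, the smallest this test can give with 4 arrays, so the test cannot reach 0.05 here. Replicates 2 and 3 showed wide differences and replicates 1 and 4 narrow ones. Probes of 1 gene often differed this much on the array. Of 7083 autosomal genes with exactly 2 probes, 2222, or 31.4%, had a difference between probe means at least as large, and the median difference was 0.32. Of the same genes 106, or 1.5%, had a mean at least as high as Map3k7, and 347, or 4.90%, had both probes called higher.

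**Figure D2:**
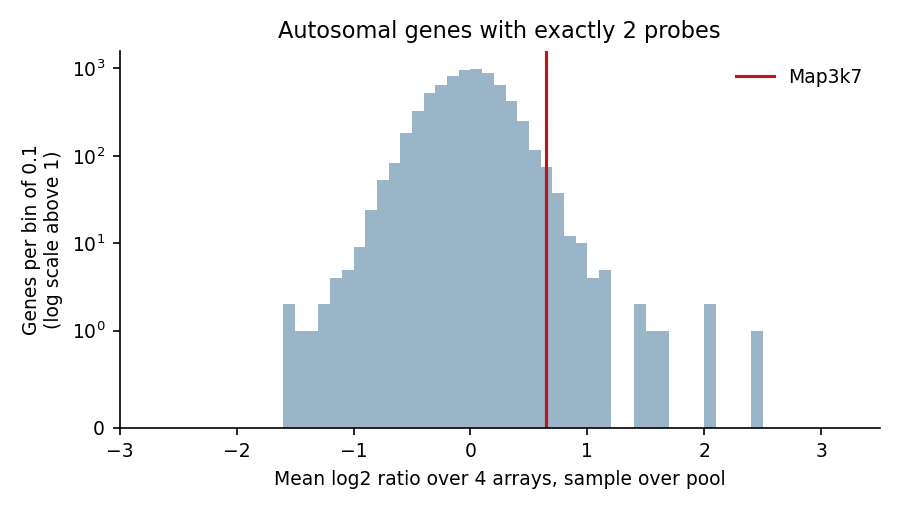
Number of autosomal genes with exactly 2 probes (vertical axis, log scale above 1) by mean log2 ratio over 4 arrays in bins of 0.1 (horizontal axis). The line marks Map3k7 at 0.65, a level that 106 of the 7083 genes reach or exceed, Map3k7 included.

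The channels were also read separately. At the upstream probe the processed intensity of the samples was 737, 787, 711 and 645 on replicates 1 to 4 and that of the pool 496, 404, 316 and 373. In the sample channel this probe was near the middle of the array, at percentiles 40.4 to 49.3 of the autosomal probes. In the pool channel it was dim, at percentiles 13.5 to 25.6. The samples varied by 8.21% (coefficient of variation over 4 arrays) and the pool by 19.0%. The downstream probe was brighter, with samples at 959, 1223, 946 and 1065 and the pool at 770, 982, 736 and 704. It stood at percentiles 61.7 to 73.0 in the sample channel and 45.1 to 59.9 in the pool channel. Before dye normalisation, the background-subtracted intensity of the upstream probe was 81.2, 90.5, 85.3 and 78.6 in the samples and 86.0, 113, 76.8 and 58.1 in the pool. That of the downstream probe was 109, 148, 129 and 140 in the samples and 142, 303, 215 and 121 in the pool. The raw sample signal was therefore below the raw pool signal on replicates 1 and 2 for the upstream probe and on replicates 1, 2 and 3 for the downstream probe. There the ratios lie above 0 only relative to the other probes of the same array, whose raw medians were 82.8 to 95.3 in the samples and 124 to 243 in the pool. All 8 spots were well above background in both channels, and none was saturated or held a surrogate value.

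**Figure D3:**
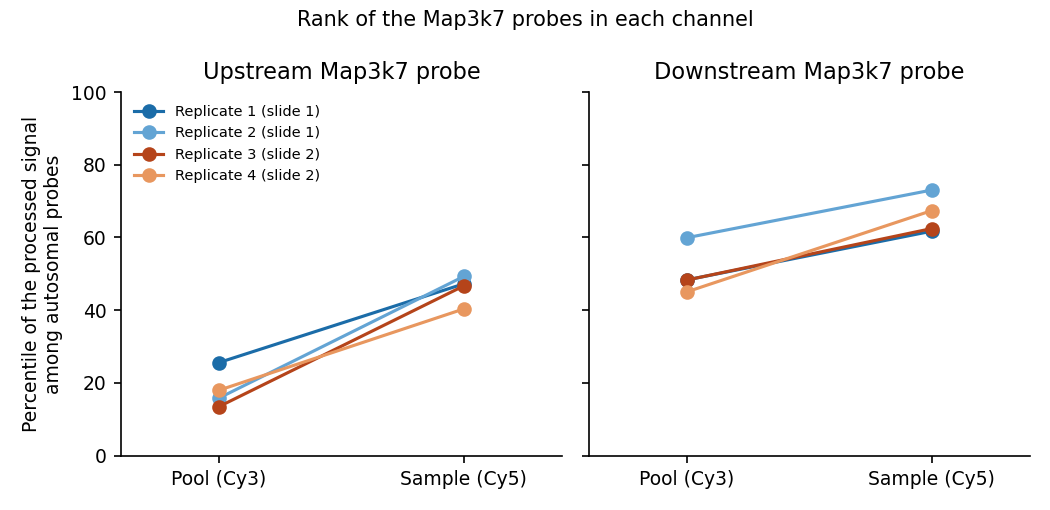
Percentile of the processed intensity of each Map3k7 probe among autosomal probes (vertical axis) in the pool channel and in the sample channel, with a line for each array. Every line rises from pool to sample, and the upstream probe starts from percentiles 13.5 to 25.6.

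Over all autosomal probes the ratio moved with brightness, in opposite directions by channel. Each channel is itself part of the ratio, and the cause of this trend was not tested. The 10477 probes that were dimmest in the pool, among them the upstream probe, had a median log2 ratio of 0.07 and 19.5% called higher, and the 10477 of middle brightness, among them the downstream probe, had a median of -0.004 and 18.2%. Ordered by sample signal instead, the medians ran from -0.12 among the dimmest 10477 probes to 0.12 among the brightest, with 8.84% and 31.2% called higher. In that order the upstream probe fell among probes with a median of -0.01 and 16.3% called higher, and the downstream probe among probes with a median of 0.03 and 21.7%. Base composition moved the ratio little in this range. Probes with the G and C share of the upstream probe had a median of 0.03 with 20.8% called higher, and those with the share of the downstream probe a median of -0.01 with 17.3%. After a correction for base composition, chosen after seeing the data, the gene stood at 0.64 (limma, adjusted p = 0.00225), the upstream probe at 0.85 and the downstream probe at 0.44. The part of brightness in the ratio of Map3k7 was not tested.

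Map3k7 also stood above the surrounding stretch of chromosome 4. The 30 other probes within 1 Mb of it, 3 before and 27 after the gene, had medians of 0.11, 0.07, 0.02 and 0.18 on replicates 1 to 4, close to the medians of the whole chromosome, which were 0.08, 0.07, 0.11 and 0.11. After subtraction of the window median Map3k7 lay at 0.36, 0.61, 0.75 and 0.51, with a mean of 0.56 ± 0.17 (SD, n = 4) and a 95% interval of 0.36 to 0.76 (limma over 20276 genes treated alike, adjusted p = 0.0044). In that comparison 30.7% of genes were called, 15.1% higher. The window was uneven, with probe means from -0.76 to 0.78 outside Map3k7. Of the 30 other probes 8 were called higher, or 26.7% against 18.2% of all autosomal probes, and 3 were called lower, where 18.8% of all autosomal probes were. The upstream Map3k7 probe was the highest of all 32 and the downstream probe ranked 8. The nearest probes on either side had lower ratios than Map3k7. The probes starting at 31952267 and 31957802 lay at -0.76 ± 0.34 and -0.63 ± 0.26 (limma, adjusted p = 0.00652 and 0.00692), and those starting at 32180840 and 32292599 at 0.03 ± 0.09 and 0.02 ± 0.08 (adjusted p = 0.819 and 0.833). The first of these 4 was not well above background in both channels on every array. No gene name is attached to these 4 probes in the files.

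**Figure D4:**
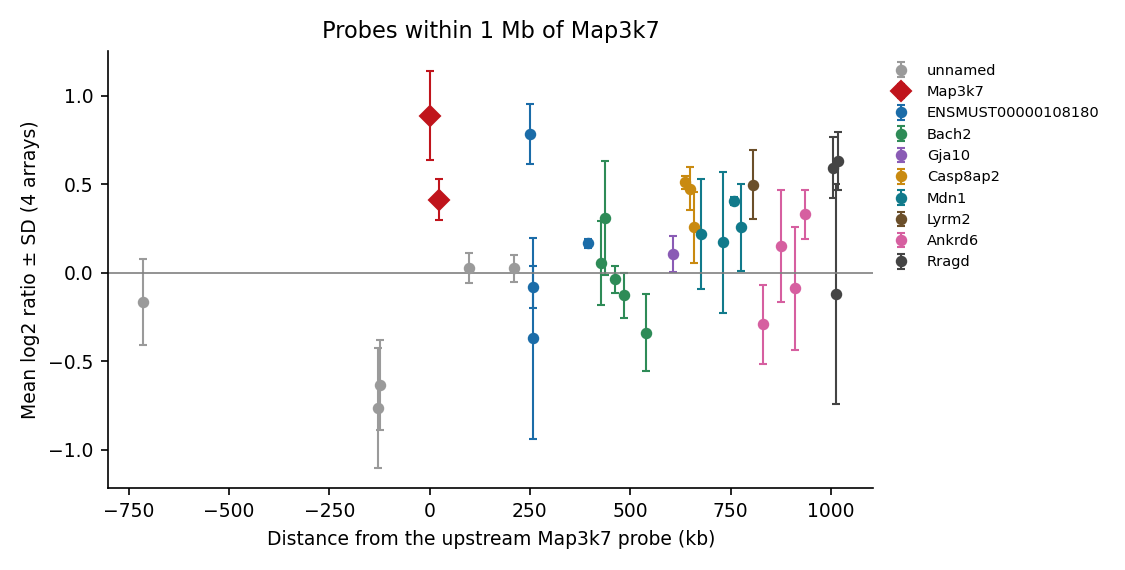
Mean log2 ratio with SD over 4 arrays (vertical axis) of each probe within 1 Mb of Map3k7, by distance from the upstream Map3k7 probe in kb (horizontal axis) and coloured by the gene name in the files. The Map3k7 probes, at 0.89 and 0.41, sit between unnamed probes at -0.76 and -0.63 on the left and 0.03 and 0.02 on the right.

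Of the 8 other names in the window 4 were called higher and none lower (35.4% of all genes called in either direction, 16.1% higher). Casp8ap2, which encodes a nuclear protein needed for histone messenger processing, had 0.44, 0.31, 0.47 and 0.44 on replicates 1 to 4, a mean of 0.41 ± 0.07 over 3 probes that ranged from 0.26 to 0.51 (limma, adjusted p = 0.00442). Lyrm2, a mitochondrial protein of the LYR family, had 0.55, 0.27, 0.44 and 0.73 on its only probe, a mean of 0.50 ± 0.20 (adjusted p = 0.00682). Rragd, a Rag GTPase that brings mTORC1 to lysosomes, had a mean of 0.35 ± 0.21 (limma, adjusted p = 0.0268). Its 4 probes ranged from -0.12 to 0.63. The Rragd probes at -0.12 and 0.59 were not well above background in both channels on every array. Mdn1, an AAA ATPase of ribosome assembly, had a mean of 0.26 ± 0.08 (adjusted p = 0.02) over 4 probes that ranged from 0.17 to 0.40. Rragd and Mdn1 each lost the call when arrays were centred on chromosome 4, at 0.25 and 0.17. Both did so also without replicates 1, 3 or 4 and with slide means as 2 samples (adjusted p = 0.0646 and 0.0807), and Mdn1 with mode centring. Casp8ap2 and Lyrm2 stayed called under all 13 alternatives, none of which changed the size limit. The other 4 did not pass. Bach2, a transcriptional repressor of lymphocytes, had -0.03 ± 0.09, Gja10, a connexin, 0.11 ± 0.10, Ankrd6, a regulator of Wnt signalling, 0.03 ± 0.18, and the transcript ENSMUST00000108180 0.12 ± 0.14. The last had probes from -0.37 to 0.78, and when only probes well above background everywhere were kept it stood at 0.46 and was called (adjusted p = 0.00101). None of the 8 gene means reached that of Map3k7.

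Ripk3, the second gene named in the genotype, gave -0.08 ± 0.06 with an interval of -0.22 to 0.07 (limma, adjusted p = 0.370). Its arrays lay at -0.0019, -0.04, -0.12 and -0.14. Where its deletion lies relative to its probes was not analysed here.

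Among the other genes of the TAK1 pathway as many were called higher as lower. Of 33 listed genes 32 were found in the files and 28 lie on autosomes and were tested. Of these 3 were called higher, 3 lower and 22 did not pass, which is 21.4% called against 35.4% of all autosomal genes, with a median of -0.01 against -0.01. None had a mean as high as Map3k7. Of the proteins that hold TAK1, Tab1 had 0.10, -0.40, -0.37 and -0.08 on replicates 1 to 4, a mean of -0.18 ± 0.24 (limma, adjusted p = 0.185). Tab2, which binds ubiquitin chains, had -0.10, -0.45, -0.66 and -0.26, a mean of -0.37 ± 0.24 (adjusted p = 0.0282), and it lost the call without replicates 2, 3 or 4 and, through the size limit, with normexp. Tab3 lies on the X chromosome and was not tested. Its mean of -0.83 ± 0.11 stood beside a median of -0.86 ± 0.02 over all X probes. The other X-linked genes of the list, also not tested, did not all lie near that median. Ikbkg had -0.81 ± 0.18, Irak1 -1.19 ± 0.31 and Xiap 0.01 ± 0.18.

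Among 11 tested receptors and adaptors 1 was higher and 2 were lower. Tnfrsf1a, the TNF receptor that starts this signal, had -0.60, -0.56, -0.50 and -0.67, a mean of -0.58 ± 0.07 (limma, adjusted p = 0.00176), with its 2 probes at -0.91 and -0.25. Ube2v1, part of the enzyme that builds the ubiquitin chains TAB proteins bind, had -0.45 ± 0.03 (adjusted p = 0.00299). Ripk1, the kinase on which those chains are built, had 0.31, 0.28, 0.65 and 0.61, a mean of 0.46 ± 0.19 (adjusted p = 0.00871). The replicates of slide 2 were higher for Ripk1 than those of slide 1. None of the 5 tested IKK and NF-kB genes passed, and their means ran from -0.08 to 0.15. The share called over all autosomal genes was 35.4%. Whether any of these small groups of the pathway list differs from that share was not tested. With so few members, the counts of such groups say little. Of 8 tested MAP2K, MAPK and Jun genes only Map2k4, an activator of JNK, passed, at 0.40 ± 0.18 (adjusted p = 0.0113). Of 2 brakes Cyld, which removes ubiquitin chains, passed at 0.40 ± 0.30 (adjusted p = 0.0349). Replicate 4 of Cyld lay at 0.83 and the others between 0.17 and 0.40, and without replicate 4 it stood at 0.26 and was not called (adjusted p = 0.0662). It was not called either without replicates 2 or 3, with chromosome 4 centring (adjusted p = 0.0658) or with the base composition correction (adjusted p = 0.0570).

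Of the other kinases of the MAP3K tier more were called lower than higher, opposite to Map3k7. Of 16 listed genes 14 were found, 13 were autosomal and tested, and 1 was called higher and 5 lower, with a median of -0.17. That is 46.2% called against 35.4% of all autosomal genes. Over all autosomal genes lower calls also outnumbered higher ones, at 19.3% and 16.1%, and no test of the difference was made. Map3k11, on 1 probe, had -0.96, -1.28, -1.08 and -1.10, a mean of -1.11 ± 0.13 (limma, adjusted p = 0.000624). With the base composition correction Map3k11 moved to -0.82 and was still called. Map3k6, on the same chromosome as Map3k7, had -0.54 ± 0.12 (adjusted p = 0.00287), with probes at -0.55 and -0.53. The same correction moved Map3k6 to -0.41, still called. Map3k4 had -0.53 ± 0.15 (adjusted p = 0.00379). Map3k14, the NIK kinase of non-canonical NF-kB signalling, had -0.29 ± 0.10 and Map3k3 had -0.28 ± 0.14. Map3k1, the 1 that was higher, had 0.26 ± 0.03 over 5 probes that ranged from -0.08 to 0.65. These last 3 lay close to the size limit. Map3k1 lost the call under 9 of 13 alternatives. These were normexp, at 0.13, mode or chromosome 4 centring, dim probes left out, slide means, the base composition correction, and leaving out replicates 1, 3 or 4. Map3k3 lost it with normexp, with slide means and without replicates 1, 2 or 3. Map3k14 lost it with the deposited table, with slide means and without replicates 2 or 3. The count of 6 fell to 3 without replicate 3. Map3k15, on the X chromosome and not tested, had -1.12 ± 0.08.

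**Figure D5:**
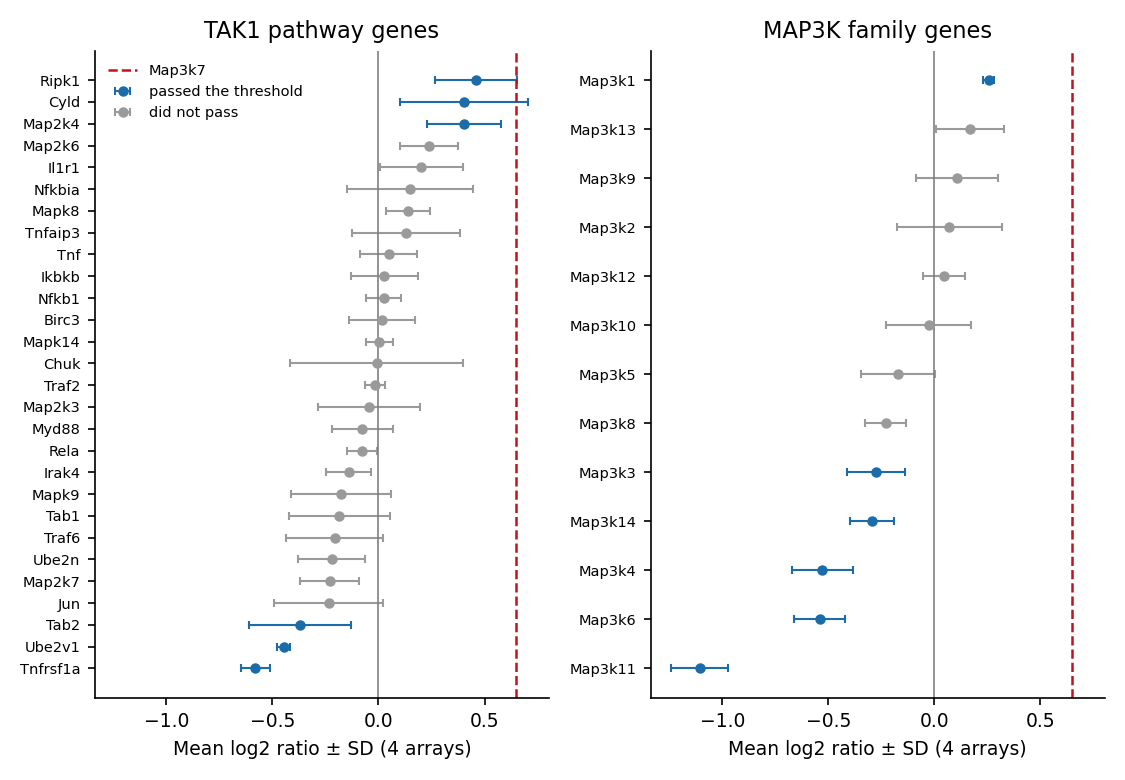
Mean log2 ratio with SD over 4 arrays (horizontal axis) of the tested autosomal genes of the TAK1 pathway (left) and of the MAP3K family (right), ordered by mean and coloured by whether they passed the threshold. The dashed line marks Map3k7 at 0.65, and the mean of no gene in either panel reaches it.

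The genes with a pattern most like that of Map3k7 were sought among the autosomal genes with exactly 2 probes, by the largest absolute difference over the 4 arrays. The nearest was Ugt2a1, with arrays at 0.55, 0.63, 0.68 and 0.70 and a largest difference of 0.09. Whether its probes also bind other Ugt2 genes was not tested. Vdac2, Arl6ip1, AK137243 and Mcee followed, each with a largest difference of 0.13. Their means were 0.59, 0.58, 0.61 and 0.56. They lie on chromosomes 14, 7, 19 and 7, away from Map3k7. The probes of Vdac2 (0.95 and 0.23) and of Arl6ip1 (0.97 and 0.19) were further apart than those of Map3k7. Those of AK137243 (0.85 and 0.36) were slightly further apart, and those of Ugt2a1 (0.84 and 0.44) and Mcee (0.59 and 0.54) were closer. The likeness rests on 4 arrays, all set against a pool of the same label.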

How the data were processed

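The members and gene lists were chosen with earlier results of these data known. Per the labels' protocols, 250 ng of DNA from FFPE sections was labelled. Per the file headers, the deposited intensity columns were written by Feature Extraction 10.10.1.1, Agilent's image analysis program, with probe positions on mm9. Its processed signals have had background subtracted, spatial trends removed and the dyes normalised on each array. The deposited log10 ratio column was used only as a check and equals the ratio of processed signals. The deposited log2 table served as an alternative. Against the scanner ratios it had r of 0.91 to 0.92 for the same array and of at most 0.69 for another array. Its medians were -0.04, 0.03, 0.05 and 0.01, its Map3k7 value of 0.67 lies beside 0.65 here, its direction was read from the correlation, and its centring and normalisation are unknown.

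Control spots and outlier-flagged spots were left out, log2 ratios were averaged per probe and arrays were centred on the autosomal median, with no loess or quantile step. Arrays correlated with each other at 0.65 to 0.73, and no files were identical. Genes, probes and genes minus the median of at least 10 neighbouring probes were tested against 0 with limma 3.58.1 in R 4.3.3 with Benjamini-Hochberg adjustment. Limma draws the variance of each gene or probe toward that of all those tested. Its p-values and intervals therefore do not rest on the printed SD alone. Ube2v1, with an SD of 0.03, had a limma standard error of 0.06. The ratio against 0 leaves out the spread between normal livers. Limma was also run on simulated data with 20445 genes, of which only 50 were shifted by each size. It called 12.0% of those shifted by 0.35, 30.0% of those by 0.5, 80.0% of those by 1 and 98.0% of those by 2. In the measured data 35.4% of genes were called, a far larger share than was shifted there. The adjustment depends on that share, so these rates do not give the sensitivity in the measured data. Named were the targeted genes, all names within 1 Mb, up to 6 called members of each list, Tab1 to Tab3, and the 5 genes most like Map3k7. Alternatives were normexp, other centring, dim probes left out, flagged spots kept, the deposited table, and slide as a block or as means. Further ones were other window widths, a size limit of 0.5, each replicate left out, and a base composition correction. The size limit of 0.5 was applied only to the count of called genes.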

Additional observations from a re-analysis of the deposited data

Results flagged for a closer look

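The downstream Map3k7 probe was flagged because replicate 4, at 0.59, stood away from the other 3 arrays, which lay between 0.34 and 0.36. Without replicate 4 the probe had a mean of 0.35 and was still called (limma, adjusted p = 0.0422). Of 27 values examined in this way 1 was flagged, and chance flags about 1 in 20.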

How the results depend on the processing

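The ratio of Map3k7 against the pool kept its direction and call under all 13 alternatives, from 0.43 with normexp to 0.71 without replicate 1 (limma, adjusted p from 0.000329 to 0.0116). Against its neighbourhood it did so under all 15, from 0.33 with normexp to 0.64 with 0.5 Mb either side (adjusted p from 0.000636 to 0.0209), and the upstream probe under all 13, from 0.61 to 0.99. The downstream probe lost its call with normexp, at 0.24, through the size limit, and kept it under the other 12. The difference between the probes ranged from 0.36 to 0.57 and that of Map3k7 between slides from 0.04 to 0.26, with no call of Map3k7 between slides. In the main slide comparison no autosomal gene was called, although 2207 had an unadjusted limma p under 0.05. The missing call between slides thus says little of stability. The sign-flip test of the probes could make no call under any alternative, so it says nothing of stability. The median of the neighbouring probes moved from 0.09 to 0.00084 with centring on chromosome 4, by construction, and to 0.0078 with 0.5 Mb either side, where the cause was not tested. The MAP3K count of 6 was 3 with slide means as 2 samples and 3 to 5 with a replicate left out. The pathway count ranged from 4 to 9. The count of called genes was 2383 with a size limit of 0.5. That limit was not among the alternatives counted for single genes or probes. The downstream Map3k7 probe at 0.41, Casp8ap2 at 0.41 and Lyrm2 at 0.498 lie below it. Centring on chromosome 4 lowered the share of calls that were higher from 45.6% to 25.9%. Among genes that passed no threshold the sign turned for Bach2 without replicate 3 (0.00081, with -0.069 without replicate 4) and for Gja10 with normexp (-0.013). It turned for Ankrd6 with mode centring (-0.0023), without dim probes (-0.035), with the deposited table (-0.071), with chromosome 4 centring (-0.065), with the base composition correction (-0.015), and without replicates 1 and 2 (-0.0035 and -0.019), where leaving out replicate 3 gave 0.12. No paired analysis was possible because there was 1 group. All 8 Map3k7 spots were well above background.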
